A study of Mus musculus with 6 samples.

Results

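The enzymes described here make serine, feed one-carbon units from serine into folate, and make proline and asparagine. They were chosen by name as Phgdh, Psat1, Psph, Shmt1, Shmt2, Mthfd2, Aldh1l2, Aldh18a1, Pycr1 and Asns. Of these 10 genes, 9 had a row among the 19613 genes of the deposited table, and Psph, the phosphatase of the last step of serine synthesis, was not analysed here. All 9 measured enzymes were above background on every array. Background was set at a log2 intensity of 7.47, the level that 95% of the 1033 olfactory receptor genes stayed under, and 12794 genes had a mean above it. At the level that 99% of those receptor genes stayed under, 8.33, Shmt1 was below background and was not tested, while the other 8 enzymes were above.

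The cells were embryoid bodies with motor neurons, grown from mouse HBG3 HB9 embryonic stem cells, which the methods spell HGB3. They carry a green fluorescent reporter under the control of HB9 (Mnx1), a transcription factor of motor neurons, and had been driven to a spinal motor neuron fate with retinoic acid and a hedgehog agonist. All 6 arrays formed 1 group, exposed to blood fluid of mice of the strain B6CBA-Tg(HDexon1)62Gpb/3J, which carry the first exon of human huntingtin with an expanded repeat as a transgene. Per the methods of the study, the donors were male carriers bled before symptoms began, and the assay asked whether a classifier trained on serum of mice that model amyotrophic lateral sclerosis (ALS) was specific to that disease. The labels name the fluid plasma, whereas the series title and the methods name it serum. A single cell line was used, and motor neurons made up only part of its cells, so an array reads the RNA of a mixture. In such a mixture, fewer cells of a type and less RNA per cell cannot be told apart. Control arrays were not analysed here, so the values are levels under this serum and their spread, and not a response to it. The arrays are named replicates 2, 4, 5, 6, 7 and 8 after their titles, the labels do not say whether they came from separate cultures or sera, and every SD and p-value below measures only the spread between these arrays.

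Serine is made from an intermediate of glycolysis by phosphoglycerate dehydrogenase (Phgdh), phosphoserine aminotransferase (Psat1) and phosphoserine phosphatase (Psph). Serine hydroxymethyltransferase then passes 1 carbon from serine to tetrahydrofolate, in the cytosol through Shmt1 and mainly in mitochondria through Shmt2, and the folate enzymes turn it into formate for nucleotide synthesis or oxidize it. ATF4 is a transcription factor whose translation rises when amino acids are short or unfolded protein builds up, and most of these enzymes are known targets of it. Because ATF4 is controlled largely at translation, the level of Atf4 mRNA is not a measure of its activity. CHOP, the product of Ddit3, is itself a target of ATF4 and binds DNA as its partner.

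ATF4 and CHOP bind composite elements that hold the letters TGATGNAA, and the promoters that bear this motif, and for contrast 1 that does not, are shown here. In RefSeq sequence of the assembly GRCm38.p6, 9 of the 10 enzymes had a promoter entry, all but Aldh1l2. The 250 bases before the start held TGATGNAA, on either strand, in 2 of those 9. Among all 32851 promoters of the table, 3.45% held it in a window of that length. The match lay 23 bases before the start of Asns and 103 bases before that of Pycr1. Each sequence runs 5′ to 3′ on the strand of the gene, and capitals mark the motif. The windows are chr6:7693210-7693459 for Asns, chr11:120643749-120643998 for Pycr1 and chr11:60811266-60811515 for Shmt1, each on the minus strand.
Asns: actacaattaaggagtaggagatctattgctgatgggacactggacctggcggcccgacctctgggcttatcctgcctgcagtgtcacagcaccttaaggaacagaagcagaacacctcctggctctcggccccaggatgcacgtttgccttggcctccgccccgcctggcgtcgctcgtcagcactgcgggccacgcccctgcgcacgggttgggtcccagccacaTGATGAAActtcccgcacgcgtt
Pycr1: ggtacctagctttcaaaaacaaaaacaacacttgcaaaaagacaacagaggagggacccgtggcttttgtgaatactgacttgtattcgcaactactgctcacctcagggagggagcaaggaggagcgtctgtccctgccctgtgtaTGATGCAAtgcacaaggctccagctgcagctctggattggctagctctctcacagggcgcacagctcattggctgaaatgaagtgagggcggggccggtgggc
Shmt1: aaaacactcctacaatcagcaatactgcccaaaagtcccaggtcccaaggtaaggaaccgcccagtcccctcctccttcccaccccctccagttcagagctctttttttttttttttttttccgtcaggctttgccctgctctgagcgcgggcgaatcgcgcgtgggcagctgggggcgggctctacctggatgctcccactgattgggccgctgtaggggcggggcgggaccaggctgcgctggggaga
The Asns window held TGATGAAA and the Pycr1 window TGATGCAA, whereas the Shmt1 window held no match. A match is a run of letters and was not tested for binding, and the lack of one says only that these letters are not in this window.

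The level of each enzyme was described first, as log2 intensity in replicates 2, 4, 5, 6, 7 and 8 in that order. Intensities of different genes depend on their probes and were not compared with each other. For serine synthesis, Phgdh, which commits the glycolytic intermediate to the pathway, read 11.65, 11.65, 11.67, 11.65, 11.49 and 11.45, with a mean of 11.59 ± 0.095 (SD, n = 6). It was flat over the first 4 of these arrays and lower in replicates 7 and 8. Psat1, the aminotransferase of the next step, read 11.86, 11.85, 11.88, 11.78, 11.68 and 11.62, with a mean of 11.78 ± 0.11 (SD, n = 6). It was high in replicates 2, 4 and 5 and lowest in replicate 8, and the arrays fell in the same order for Psat1 as for Phgdh. For Phgdh that order rests on very small differences, with 11.6488, 11.6483 and 11.6479 in replicates 2, 4 and 6.

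The serine hydroxymethyltransferases differed in how much they varied. Shmt2, the mitochondrial form, read 11.95, 12.05, 11.97, 11.95, 11.81 and 11.81, with a mean of 11.92 ± 0.095 (SD, n = 6), highest in replicate 4 and low in replicates 7 and 8. Shmt1, the cytosolic form, read 7.76, 7.82, 7.83, 7.67, 7.77 and 7.76, with a mean of 7.77 ± 0.055 (SD, n = 6). Shmt1 was lowest in replicate 6 rather than in 7 or 8, and it lay nearest to the background level of the 9 enzymes. It was the only one of the 9 whose SD was under the median SD of all genes above background, 0.076. This depended on the scaling. After quantile normalization its SD was 0.087, over a median of 0.073, and with median-centred arrays 6 of the 9 enzymes, rather than 8, were over the median of 0.083. Without replicate 6 its SD was 0.033.

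The mitochondrial folate enzymes had wider ranges. Mthfd2, a dehydrogenase and cyclohydrolase that oxidizes the folate-bound carbon and that is typical of embryonic and dividing cells, read 11.26, 11.18, 11.34, 11.03, 11.00 and 11.00, with a mean of 11.14 ± 0.15 (SD, n = 6). Replicates 2, 4 and 5 all lay above replicates 6, 7 and 8. Aldh1l2, which oxidizes formyl folate to carbon dioxide in mitochondria, read 10.86, 10.87, 10.71, 10.71, 10.47 and 10.46, with a mean of 10.68 ± 0.18 (SD, n = 6). The arrays formed 3 pairs, with replicates 2 and 4 at the top and 7 and 8 at the bottom, and the highest array was 1.33-fold over the lowest.

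Proline is made from glutamate in mitochondria. Aldh18a1, the first enzyme of the route, read 11.37, 11.31, 11.28, 11.26, 11.20 and 11.10, with a mean of 11.25 ± 0.094 (SD, n = 6), highest in replicate 2 and lowest in replicate 8. Pycr1, the reductase of the last step, read 11.24, 11.32, 11.25, 11.10, 10.79 and 11.00, with a mean of 11.12 ± 0.20 (SD, n = 6). Its lowest array was replicate 7, and its highest, replicate 4, was 1.44-fold above it, the widest range of the 9 enzymes. That rank rested on replicate 7, without which the SD of Pycr1 was 0.13 and its range 1.25-fold, against 0.17 and 1.33-fold for Aldh1l2. Among all genes above background, 95.4% had a smaller SD than Pycr1 and 93.8% a smaller SD than Aldh1l2. Asns, which makes asparagine from aspartate, read 12.55, 12.50, 12.40, 12.47, 12.36 and 12.23, with a mean of 12.42 ± 0.11 (SD, n = 6). It was highest in replicate 2 and lowest in replicate 8.

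**Figure D1:**
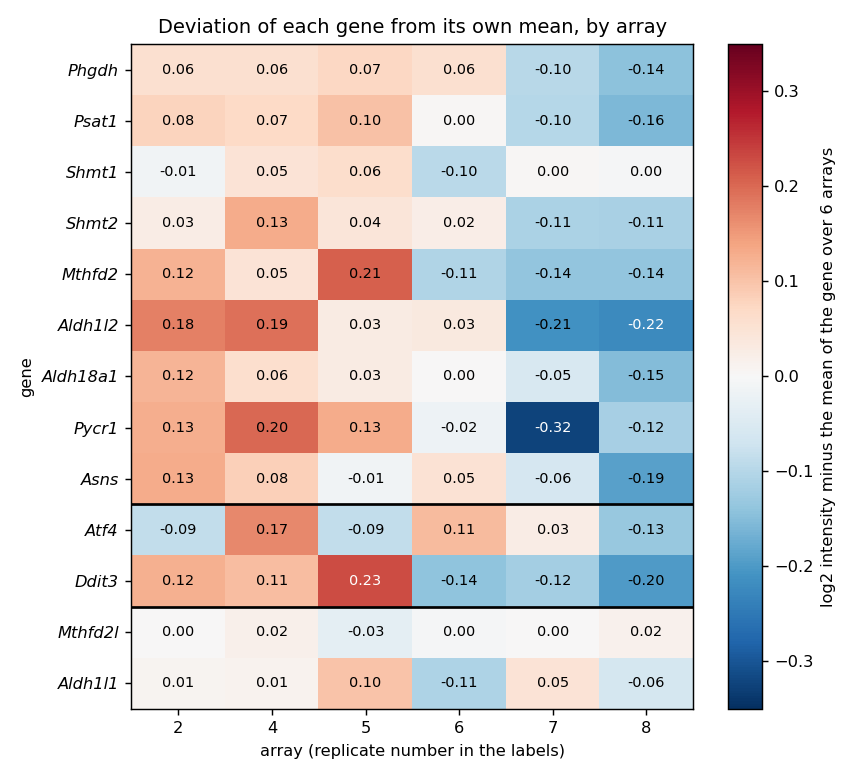
Log2 intensity of each gene minus its own mean over the 6 arrays, as a colour scale with the value in each cell (columns are replicates). Rows are the 9 enzymes, then Atf4 and Ddit3, then the paralogues Mthfd2l and Aldh1l1. All 9 enzymes lie under their means in replicate 8, Shmt1 by a margin that rounds to 0.00, and 8 of 9 do in replicate 7, while none does in replicate 4.

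The enzymes shared their high and low arrays. Each of the 9 had its highest value in replicate 2, 4 or 5, and 8 of the 9 had their lowest in replicate 7 or 8. These sets of arrays were named after the values were seen. The share of all genes with such arrays is not given here, so the counts are descriptions. The mean log2 intensity over the 9 enzymes was 11.17 in replicate 2, 11.17 in replicate 4, 11.15 in replicate 5, 11.07 in replicate 6, 10.95 in replicate 7 and 10.94 in replicate 8. Over all genes above background, the median deviation of an array from the gene means stayed within 0.009 on the log2 scale, and RMA keeps such shifts small. Replicate 8 differed from the rest in other ways, with the lowest mean correlation with the other arrays over all genes (0.992, against 0.994 to 0.995) and the lowest median intensity (296, against 305 to 311). The lower quartile of intensity, which reflects dim genes, was 109 to 121 in replicates 2, 4 and 8 and 129 in replicates 5, 6 and 7, and the enzymes were both high and low within each of those sets of arrays. The labels name no batch of arrays or cells, so values within a batch cannot be given. Whether the quality of an array had a part in the shared pattern was not tested.

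Covariation between the enzymes was described next, by Pearson's r over the 6 arrays for each of 36 pairs. The mean r was 0.69 and the median 0.80, against a mean of 0.0028 over all pairs of genes above background. An r over 0.5 was found for 29 of the 36 pairs, where 19.9% of all pairs of genes above background reached it, and an r over 0.8 for 18, where 5.19% did. Since all pairs share the same 6 arrays, these are descriptions with no test. The first principal component held 83.4% of the variance of the 9 enzymes and 47.4% of that of all genes above background.

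Much of this covariation rested on replicates 7 and 8. Over replicates 2, 4, 5 and 6 alone, an alternative added after the values were seen, the mean r of the 36 pairs was 0.35, from -0.81 to 0.98, and 7 pairs were below 0. An r over 0.5 was found for 17 of 36 pairs, where 26.0% of all pairs of genes above background reached it over these 4 arrays, and an r over 0.8 for 6, where 10.9% did. Phgdh and Psat1 then had an r of 0.65, Psat1 and Mthfd2 one of 0.98, and Aldh18a1 and Asns one of 0.78. Phgdh and Asns turned from 0.86 to -0.81.

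Over all 6 arrays, the tightest pairs joined enzymes of 1 route and of different routes. Phgdh and Psat1, consecutive steps of serine synthesis, had an r of 0.96 and a Spearman's rho of 1. Aldh18a1 of proline synthesis and Asns of asparagine synthesis also had an r of 0.96. Shmt2 had an r of 0.93 with Aldh1l2 and of 0.90 with Pycr1, and Aldh1l2 had an r of 0.91 with Asns. Among the pairs without Shmt1, the lowest r was 0.54, between Mthfd2 and Asns.

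Over all 6 arrays, Shmt1 stood outside this pattern. Its 8 pairs had a mean r of 0.20, from -0.087 with Asns to 0.58 with Mthfd2, against a mean of 0.83 and a range from 0.54 to 0.96 for the 28 pairs of the other enzymes. Leaving Shmt1 out was chosen after its values were seen, so the contrast was not tested. It was not seen over replicates 2, 4, 5 and 6, where the mean r was 0.31 without Shmt1 and 0.35 with it. Its level was near background, at 7.77 against 7.47, and the part of this in its low r was not tested.

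**Figure D2:**
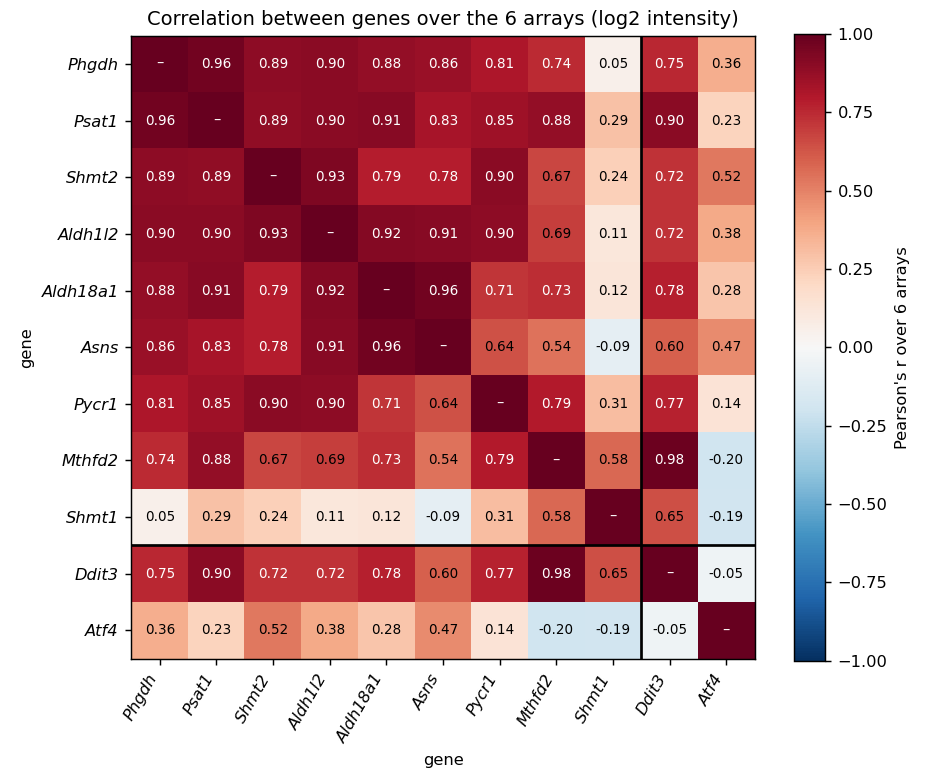
Pearson's r over the 6 arrays between each pair of the 9 enzymes, with Atf4 and Ddit3 added, as a colour scale with the value in each cell. The block of 8 enzymes without Shmt1 holds values from 0.54 to 0.96, while the cells of Shmt1 with the other enzymes run from -0.087 to 0.58.

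Each enzyme was then set in turn against every gene above background, with a two-sided exact permutation test over the 720 pairings of arrays and Benjamini-Hochberg adjustment over all genes. No other enzyme reached an adjusted p of 0.05 with any of them, and 0% of all genes did. At an unadjusted exact p of 0.05 or less, Psat1 was positively related to 7 of the 8 other enzymes, where 3.41% of all genes were. Phgdh was related to 6 of 8 by the same rule, also with 3.41% of all genes, and Aldh1l2 to 6 of 8, with 2.85%. The count was 4 of 8 for Shmt2 (2.93% of all genes), Aldh18a1 (2.63%), Pycr1 (3.31%) and Asns (2.61%). Mthfd2 was related to 1 of the 8, where 3.73% of all genes were, and Shmt1 to 0 of 8, where 1.26% were. Without replicates 7 and 8, the arrays most distant from the medians of Phgdh, Psat1 and Aldh1l2, the r of Phgdh was below 0 with 4 of the 8, Shmt2, Aldh1l2, Aldh18a1 and Asns. That of Psat1 was below 0 with 1, Asns, and that of Aldh1l2 with 1, Phgdh. By Spearman's rho the counts were lower for most enzymes. They were 2 of 8 for Phgdh (1.89% of all genes), Psat1 (1.89%), Mthfd2 (2.04%), Aldh1l2 (1.93%), Aldh18a1 (1.8%) and Asns (1.46%), 1 of 8 for Shmt2 (2.13%) and Pycr1 (2.48%), and 0 of 8 for Shmt1 (0.469%). For Phgdh and Psat1 the exact p was 0.00139, the smallest that 720 pairings can give, and the adjusted p was 0.438. With 6 arrays, 356 genes would have had to reach that smallest p for any to pass the adjustment, and 34 did for Phgdh.

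Atf4 mRNA did not follow the order of the arrays that the enzymes shared. It read 11.43, 11.68, 11.43, 11.62, 11.54 and 11.38 in replicates 2, 4, 5, 6, 7 and 8, with a mean of 11.51 ± 0.12 (SD, n = 6). It was highest in replicates 4 and 6 and lowest in replicate 8, so replicate 7, where 8 enzymes were under their means, was above the mean for Atf4. None of the 9 enzymes was related to Atf4 at an adjusted p of 0.05, and 0% of all genes were. None was at an unadjusted exact p of 0.05 by Pearson's r, where 4.8% of all genes were, and none was by Spearman's rho, where 1.49% of all genes were positively related.

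The r with Atf4 ran from -0.20 for Mthfd2 to 0.52 for Shmt2, with a median of 0.28 over the enzymes and 0.0083 over all genes above background. It was 0.47 for Asns, 0.38 for Aldh1l2, 0.36 for Phgdh, 0.28 for Aldh18a1, 0.23 for Psat1, 0.14 for Pycr1 and -0.19 for Shmt1. The exact permutation p lay between 0.281 for Shmt2 and 0.797 for Pycr1, and the adjusted p between 0.960 and 0.980. When the 2 arrays most distant from the median Atf4 level were left out, r ran from -0.64 for Pycr1 to 0.16 for Asns, so even the sign of the positive values rested on those arrays for 5 of the 7 enzymes with an r above 0. A relation of moderate size cannot be seen with 6 arrays, and a p that misses the threshold does not show that Atf4 and the enzymes were unrelated.

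Ddit3 mRNA lay closer to the enzymes. It read 9.53, 9.51, 9.63, 9.27, 9.29 and 9.21 in the same order of replicates, with a mean of 9.41 ± 0.17 (SD, n = 6). Replicates 2, 4 and 5 lay above replicates 6, 7 and 8, as they did for Mthfd2. All 9 enzymes had a positive r with Ddit3, from 0.60 for Asns to 0.98 for Mthfd2, with a median of 0.75 against 0.067 over all genes above background. None passed the adjustment over all genes, at adjusted p from 0.523 to 0.823, and 0% of all genes did.

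At an unadjusted exact p of 0.05 or less, 2 of the 9 enzymes were positively related to Ddit3, where 3.49% of all genes were. These were Mthfd2, with an r of 0.98 and an exact permutation p of 0.00556, and Psat1, with an r of 0.90 and an exact permutation p of 0.0194. By Spearman's rho the count was also 2, Phgdh and Psat1, each with a rho of 0.94 and an exact p of 0.0167, where 1.88% of all genes were positively related. The ranks of Phgdh in replicates 2, 4 and 6 rest on very small differences. When the 2 arrays most distant from the median Ddit3 level were left out, r stayed positive for all 9, from 0.53 for Phgdh to 0.97 for Mthfd2. These were replicates 5 and 8, whereas replicates 4 and 6 were left out for Atf4, so the 2 checks are not alike. Without replicates 7 and 8, r with Ddit3 was 0.24 for Aldh1l2, 0.26 for Shmt2, 0.66 for Phgdh, 0.80 for Pycr1 and 0.999 for Psat1. Values of the other enzymes without those arrays are not given here.

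The difference between the relations to Ddit3 and to Atf4 was examined directly, by relating every gene to the difference between standardized Ddit3 and standardized Atf4. This comparison was added after the values were seen. The r was positive for all 9 enzymes, from 0.086 to 0.81, the highest for Mthfd2 with an exact permutation p of 0.0625. None passed at an unadjusted exact p of 0.05, where 4.22% of all genes were positively related, so a difference between the relations was not shown. Without replicates 2 and 5, the arrays most distant from the median of this difference, r was below 0 for 8 of the 9 enzymes, from -0.74 for Asns, and above 0 only for Shmt1, at 0.68. Atf4 and Ddit3 themselves had an r of -0.047, with an exact permutation p of 0.951.

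**Figure D3:**
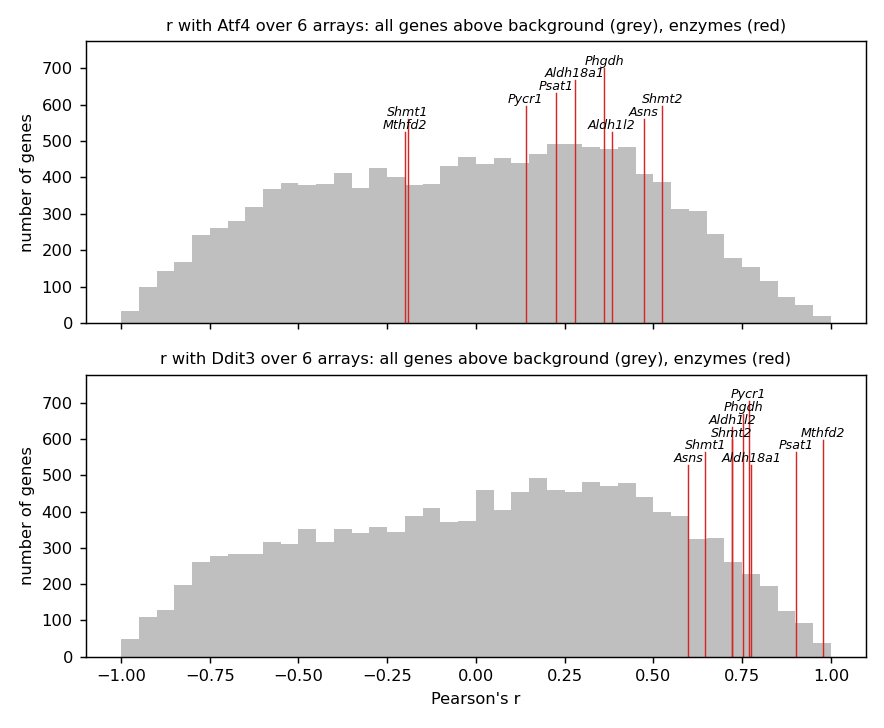
Histograms of Pearson's r over the 6 arrays between every gene above background and Atf4 (top) or Ddit3 (bottom), as the number of genes per bin, with a red line for each of the 9 enzymes. The enzymes lie between -0.20 and 0.52 for Atf4 and between 0.60 and 0.98 for Ddit3.

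The share of motor neurons could differ between cultures, so the enzymes were also set against the mean log2 level of Olig2, Mnx1, Isl1 and Lhx3, transcription factors of motor neurons and their progenitors. The authors had used these 4 genes to correct for batches of neurons. They did not run together, with an r with the mean of the enzymes from -0.84 for Isl1 to 0.63 for Lhx3. The mean of the 4 genes was 9.05, 9.07, 9.23, 9.11, 9.03 and 9.17 in replicates 2, 4, 5, 6, 7 and 8, highest in replicate 5 and lowest in replicate 7. None of the 9 enzymes was related to it at an adjusted or at an unadjusted exact p of 0.05 by Pearson's r, where 0% and 4.86% of all genes were, and none was by rho, where 1.59% were positively related. The r ran from -0.43 for Asns to 0.32 for Mthfd2, with a median of 0.070. On the linear scale 1 enzyme passed at an unadjusted exact p of 0.05, Asns, with an r of -0.84 and an exact permutation p of 0.0347. The other enzymes ran on that scale from -0.71 for Aldh18a1 to 0.15 for Shmt1, and only Shmt1 was above 0. On the log2 scale 6 of the 9 were above 0, so the sign of the relation depended on the scale. Whether the share of motor neurons had a part in the pattern was not tested.

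Markers of the cells in the mixture were then set beside the enzymes. The mean of 8 motor neuron markers above background was 9.27 to 9.45, lowest in replicate 4 and highest in replicate 8, the array where most enzymes were lowest. Of these 8, 2 had an r under -0.8 with the mean of the enzymes, where 3.9% of all genes did, namely Isl1 (r = -0.84) and the choline transporter gene Slc5a7 (r = -0.93). The median over the 8 was -0.14, and Lhx3 had an r of 0.63. The mean of 7 proliferation markers was 10.50 to 10.57, lowest in replicate 2 and highest in replicate 7. Of the 7, 2 had an r under -0.8, Mki67 (r = -0.93) and Bub1 (r = -0.97). The others did not share this, with Mcm2 at -0.49, Pcna at -0.19, Ccnb1 at 0.022, Top2a at 0.23 and Cdk1 at 0.33. The median over the 7 was -0.19. The 7 progenitor markers above background had a mean of 10.01 to 10.08, and the 6 glial markers one of 9.50 to 9.65, lowest in replicate 8. Of the blood markers, 2 of 4 matched genes were above background, Itgam and Cd68, while the haemoglobin gene Hbb-b1 and the pan-leukocyte gene Ptprc were not. Of the pluripotency markers 2 of 6 were above background, and of the endoderm, mesoderm and vascular markers 6 of 10. The part of these cells in the covariation of the enzymes was not tested.

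Several of the enzymes have a paralogue that does the same chemistry in another place or cell type. The log2 ratio of the 2 genes removes only a shift of the same size in both on an array. Because the probes differ, only the change of a ratio over arrays can be read. The ratio of Shmt2 to Shmt1 was 4.04 to 4.27 on the log2 scale and was highest in replicate 6. That of Mthfd2 to Mthfd2l, the form of adult tissues, was 1.42 to 1.82 and was highest in replicate 5. Aldh1l2 to Aldh1l1, the cytosolic formyl folate dehydrogenase known as a marker of astrocytes, was 2.60 to 3.05, highest in replicate 4 and lowest in replicate 7. Aldh1l1 and Shmt1 lay near background, with means of 7.81 and 7.77 against 7.47, so the ratios to them rest on a dim gene.

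None of these 3 ratios was related to Atf4, with r from -0.22 for Mthfd2 to Mthfd2l to 0.62 for Shmt2 to Shmt1 and exact permutation p from 0.672 to 0.696 after adjustment over 4 ratios, of which 3 are reported here. Against Ddit3, a comparison added after the values were seen, the ratio of Mthfd2 to Mthfd2l had an r of 0.97 and an exact permutation p of 0.00278, or 0.0111 after the same adjustment. Without replicate 2, 4, 5 or 8 the adjusted exact p was 0.0667, with r from 0.96 to 0.99. The other 2 ratios each had an adjusted exact p of 0.479. By Spearman's rho, the ratio of Mthfd2 to Mthfd2l had a rho of 0.94 with Ddit3 and an adjusted exact p of 0.0667. Mthfd2l itself hardly varied, at 9.56 ± 0.018 (SD, n = 6), and only 0.50% of genes above background had a smaller SD, so this ratio follows Mthfd2. Mthfd2 alone had an r of 0.98 with Ddit3, seen before the ratio was tested, and an adjusted exact p of 0.523 over all genes. The ratio was adjusted over 4 ratios only, so its lower adjusted p is no separate result.

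The genes most like the enzymes in pattern were those with the highest r with the mean log2 level of the 9, among 6389 genes with an SD over the median. They were Cth (r = 0.99), Hsd17b1 (0.99), Eif3c (0.99), Bcat1 (0.99), Kcng3 (0.99), Slc7a5 (0.98), Mef2b (0.97) and Gpt2 (0.97). Cth makes cysteine from cystathionine, Bcat1 transaminates branched-chain amino acids, Gpt2 makes alanine in mitochondria, and Slc7a5 carries large neutral amino acids into the cell. The level of Cth was 10.79, 10.86, 10.84, 10.62, 10.39 and 10.32, with replicates 2, 4 and 5 high and 7 and 8 low as for the enzymes, and a highest array 1.45-fold over the lowest. Over all genes above background the median r with the mean of the enzymes was 0.068, and 3.53% had an r over 0.8. Atf4 had an r of 0.26 and Ddit3 one of 0.87 with the same mean. Of the 10 enzymes, 6 are among the 134 genes of the study's gene classifier of ALS serum, namely Aldh18a1, Asns, Mthfd2, Psat1, Pycr1 and Shmt2, as are Atf4, Ddit3, Slc7a5 and Gpt2. The table here held 19613 genes in all. The study took those 134 genes from gene sets that were lower with carrier serum, so genes of 1 pathway could enter together. The count is a description.

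Other genes of amino acid supply were described by their r with the mean of the enzymes, with the 3.53% of all genes over 0.8 as the background. All 10 of the amino acid transporters had an r over 0.8, with a median of 0.89, and they include Slc38a2, which carries small neutral amino acids, and Slc7a11, the cystine transporter. Of the 18 cytosolic tRNA synthetases measured, which charge tRNAs with amino acids, 10 had an r over 0.8, with a median of 0.83. Of 18 stress regulators above background, 8 did, with a median of 0.74, and Nupr1, a stress-induced chromatin protein, had an r of 0.81. Since many, though not all, of these genes were known to respond to ATF4 and the lists were made with earlier results in view, the counts are descriptions.

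The genes of the wider folate and amino acid pathways were less close. Of 23 folate and one-carbon genes above background, 1 had an r over 0.8 and 1 an r under -0.8 with the mean of the enzymes, against the same 3.9% of all genes, with a median of 0.25. Of 10 genes of methionine and transsulfuration, 1 did, which was Cth, with a median of 0.14. Of 16 other genes of amino acid synthesis, 3 did, with a median of 0.18, and they include Bcat1 and Gpt2.

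By the test against Atf4, none of the genes of these 6 lists passed the adjustment over all genes. At an unadjusted exact p of 0.05, 1 folate gene was negatively related to Atf4, where 3.07% of all genes were, and this was the mitochondrial serine carrier Sfxn1, with an r of -0.87 and an exact permutation p of 0.0458. Of the synthetases, 1 was positively related, where 1.73% of all genes were, and this was Farsa, a subunit of the phenylalanine enzyme, with an r of 0.86 and an exact permutation p of 0.0319. No gene passed at that threshold among the methionine genes, the other amino acid synthesis genes, the stress regulators or the transporters. Against Ddit3, unadjusted positive relations numbered 0 of 23 folate genes, 1 of 10 methionine genes, 3 of 16 other amino acid synthesis genes, 2 of 17 stress regulators, 1 of 10 transporters and 2 of 18 synthetases, where 3.49% of all genes were. None of them passed the adjustment over all genes.

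**Figure D4:**
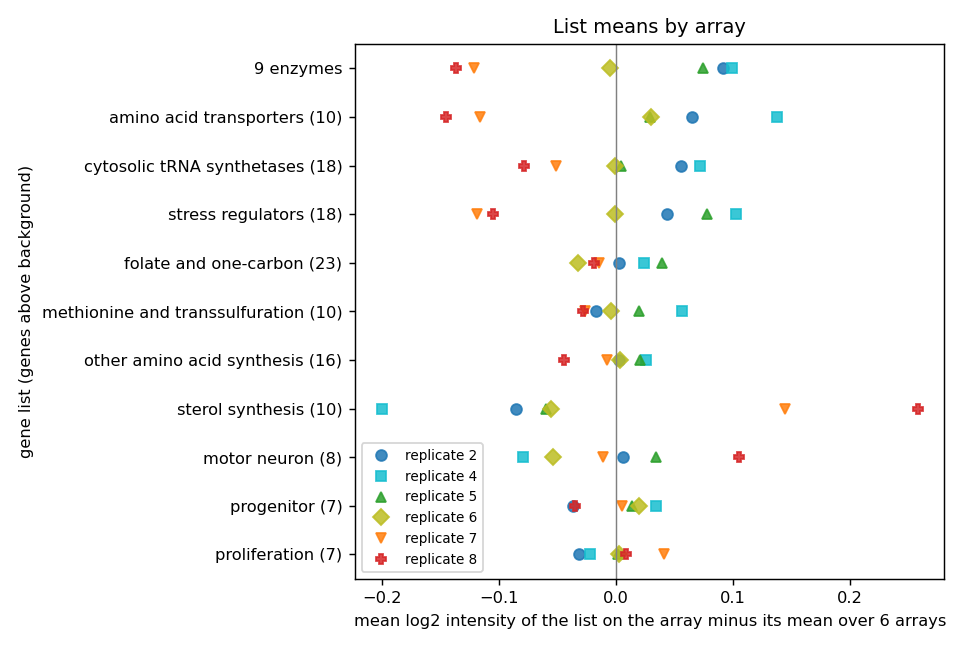
Mean log2 intensity of each gene list above background minus its own mean over the 6 arrays, by replicate (each symbol 1 array, with the number of genes after each list). The enzymes, the transporters, the synthetases and the stress regulators lie low in replicates 7 and 8, while the sterol synthesis genes lie high there.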

How the data were processed

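Total RNA of embryoid bodies had been hybridised to Affymetrix mouse exon arrays, 6 arrays in 1 group. The deposited table holds a linear intensity for every gene on every array. According to the methods, the authors made these intensities by Robust Multi-array Averaging (RMA) in the Aroma Affymetrix package, taking the mean over all exons of a gene, while the submitters' processing notes name Affymetrix Expression Console and RMA. The methods name that software for the outlier screen of each batch of embryoid bodies. RMA equalizes array distributions, which can hide a shift shared by most genes. The methods state joint normalization for the ALS arrays. Which arrays were normalized with these 6 and the genome build were not given in the sources used here, and the batch correction of the methods was not applied here. The table held 0 columns of other samples. Of its names, 17541 were current symbols and 1778 synonyms in a RefSeq table of GRCm38.p6, and 294 matched neither.

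Intensities were taken to log2 with no pseudocount. Genes with a mean over the 95th percentile of olfactory receptor genes were kept. Pearson's r and Spearman's rho were tested with two-sided exact permutations of all 720 pairings and adjusted by Benjamini-Hochberg over all genes kept, with Python 3.11.15, numpy 2.4.6, pandas 2.3.3 and scipy 1.17.1. The procedure was tested on simulated data. Depth in counts does not exist for arrays, and precision is limited by how many there are. The enzymes, the lists and the tests were chosen with earlier results of these data known. Named genes were the enzymes, Atf4, Ddit3, the 4 motor neuron genes, 3 paralogues, the 8 genes most like and the 4 most opposed to the mean of the enzymes among genes with an SD over the median, and, per list, up to 2 with the highest and 2 with the lowest r with Atf4. Further list members named as markers or as not analysed fall outside this rule and were named after their values were seen. List members with no row by symbol or synonym, among them Pycr3, Fars2, Mars, Wars, Hmgcs1, Slc18a3, Slc1a3 and Hba-a1, were not analysed here, and results of a few further list members are not reported here. Alternatives were 2 other scalings of the arrays, the linear scale, another background level or none, rho, and leaving out each array.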

Additional observations from a re-analysis of the deposited data

How the results depend on the processing

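No enzyme and no gene tested passed the adjusted test against Atf4, Ddit3 or the motor neuron genes under any of the alternatives (Shmt1 was not tested at the higher background), so these counts of 0 did not depend on the scaling, the background or 1 array. With 6 arrays the adjustment could hardly be passed, so this says nothing of stability. The mean r between the enzymes was 0.83 without Shmt1, an alternative chosen after seeing the data, 0.35 over replicates 2, 4, 5 and 6, likewise added, and 0.65 to 0.77 when 1 array at a time was left out.

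The sign of several relations to Atf4 rested on 1 array. With 1 array left out, r ran from -0.060 to 0.57 for Phgdh, from -0.27 to 0.48 for Psat1, from -0.27 to 0.67 for Aldh18a1 and from -0.31 to 0.38 for Pycr1, and each was below 0 without replicate 8, Pycr1 also without replicate 4. It ran from -0.58 to 0.064 for Mthfd2, positive without replicate 5, and from -0.71 to 0.40 for Shmt1, positive without replicate 6. The r of the ratio of Mthfd2 to Mthfd2l ran from -0.62 to 0.069, positive without replicate 5. The cause was not tested.

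The count of enzymes related to Ddit3 at an unadjusted exact p of 0.05 was 1 with median-centred arrays and without replicate 2 or 4, against 2. It was 3 without replicate 6 or 7, and 4 after quantile normalization. Against the motor neuron genes the count was 1 on the linear scale, against 0. The shares of all genes at that threshold under these alternatives are not given here, so the changed counts are descriptions. The SD of Shmt1 was 0.087 after quantile normalization. No paired analysis was possible because the samples form 1 group.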

Other observations

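The genes of sterol synthesis ran against the enzymes over the arrays. Of 10 described here, 7 had an r under -0.8 with the mean of the 9 enzymes, where 3.9% of all genes above background did, and the median was -0.90. Their mean log2 level was 9.69, 9.58, 9.72, 9.72, 9.92 and 10.04 in replicates 2, 4, 5, 6, 7 and 8, so it was highest in replicates 7 and 8, where the enzymes were lowest. None of the 10 was related to Atf4 at an adjusted exact p of 0.05, where 0% of all genes were. At an unadjusted exact p of 0.05, 1 was negatively related, where 3.07% of all genes were. It was the squalene epoxidase gene Sqle, with an r of -0.93 and an exact permutation p of 0.00972. These are descriptions over 6 shared arrays, and the r with the mean of the enzymes was not repeated without replicates 7 and 8.

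The single genes most opposed to the mean of the enzymes were Cpne2 (r = -0.99), Hsd11b2 (r = -0.99), Slco3a1 (r = -0.98) and Cdo1 (r = -0.98). Cdo1, cysteine dioxygenase, starts the breakdown of cysteine. Its log2 level was 9.09, 9.08, 9.07, 9.18, 9.34 and 9.43 in replicates 2, 4, 5, 6, 7 and 8, lowest in replicate 5 and highest in replicate 8. These genes were chosen for this pattern, so their order over the arrays is a description.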
